A study of Mus musculus with 36 samples.

Results

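Organoids kept in medium conditioned by quiescent fibroblasts (QCM + IgG) were compared with organoids kept in complete media (complete media + IgG). The comparison used 12 of the 36 RNA libraries of the study, 6 of each medium, chosen by the treatment named in their labels. All organoids came from the jejunum of C57BL/6 mice, were grown from crypts in Matrigel and spent 2 days in their medium before RNA was taken. Complete media is IntestiCult, a commercial growth medium for intestinal organoids, and every culture of these groups also received control IgG, the antibody control of the anti-Ptk7 arm of the study. QCM was made from mouse embryonic fibroblasts that had been starved of serum. Serum-free medium held on these cells for 24 h was filtered, concentrated and mixed with IntestiCult. The study's methods name no concentrate of unconditioned medium for the complete media cultures, so factors of the fibroblasts and the added concentrate itself cannot be told apart here. The other libraries are 6 each with SCM (medium of senescent fibroblasts) or with recombinant Wnt5a, either of them with IgG or with anti-Ptk7, and they entered the model as further condition means.

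The intestinal epithelium is renewed by Lgr5+ stem cells at the crypt base, next to Paneth cells, and their progeny divide and then mature into absorptive enterocytes or into goblet, enteroendocrine and tuft cells. Fibroblasts beneath the epithelium secrete Wnt ligands, BMPs and their antagonists, TGF-β family factors and growth factors, which set where stem cells are kept and where cells mature. TGF-β and BMP signals reach the nucleus through Smad proteins and switch on Id genes and their own feedback inhibitors. In the study QCM served as the control for the senescent medium, and the comparison with complete media shows what that control itself does to the epithelium.

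The 6 complete media libraries held between 9581589 and 13470855 counts and the 6 QCM libraries between 11969302 and 15783703, so QCM was sequenced somewhat deeper. Mitochondrial genes took 0.340% to 0.645% of the counts in complete media and 0.282% to 0.707% in QCM. The summed level of 9 epithelial markers, among them Epcam, Cdh1 and Vil1, was 10470.3 to 13620.4 CPM (median 11332) in complete media and 12350.5 to 16159 CPM (median 13436) in QCM, where CPM are counts scaled to the library size corrected by TMM. Of 12 fibroblast markers, Col3a1, Dcn and Thy1 had no count in any of the 12 libraries, and the sum of the list was 4.00 to 8.24 CPM (median 6.00) and 4.96 to 9.33 CPM (median 6.43). The sum of 8 immune markers was 13.6 to 16.6 CPM (median 14.8) and 10.6 to 16.3 CPM (median 12.9), most of it Csf1r, and Ptprc reached at most 0.638 CPM. The 5 endothelial markers together stayed at or below 2.83 CPM in both media. Epithelial markers were thus abundant in every library, and the defining markers of fibroblasts were at or near 0 in both media, with Vim the highest at 6.24 CPM.

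Few genes passed the test between the media when the libraries of a medium were taken as unpaired. Of 15497 genes tested, 55 were higher in QCM (0.355%) and 3 were lower (0.0194%) with calls made where the adjusted p lay under 0.05 and the fold exceeded 1.5. Unless another tool is named, every adjusted p given here comes from edgeR's quasi-likelihood test with Benjamini-Hochberg adjustment over all genes tested, and where levels are given in pairs complete media comes first and QCM second. Without the fold cutoff 84 genes were higher (0.542%) and 18 lower (0.116%), and 1199 were higher and 659 lower at an unadjusted p under 0.05. The fit, whose spread comes from all 36 libraries, bounded the change of 8841 genes (57.0%) within 1.5-fold in either direction at 95% confidence, and for most of the rest a change of that size was not excluded at this spread. Over all genes the median log2 fold change was 0.023. The libraries of both media did not overlap for 40 of the 55 higher genes and 2 of the 3 lower ones, beside 270 of all genes tested (1.74%). Of the 55 higher genes, 50 are protein-coding and 24 were more than 2-fold higher. The count of higher genes depended on single libraries. It was 36, 35 and 36 without complete media replicate 3, 4 and 5, and the count of lower genes was 11 without QCM replicate 6 and 8 without complete media replicate 1.

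The counts depended more on whether libraries of the same replicate number were paired. The series describes 6 numbered mice and the labels number the replicates of each condition from 1 to 6, but no label ties a number to a mouse. If the numbers do mark the mice, a fit blocked on them is the one that takes the animal into account. With this replicate block, over all 36 libraries, 166 genes were higher (1.07%) and 12 were lower (0.0774%), and all 58 calls of the fit without it were kept. Over the 12 libraries alone the block gave 138 higher and 24 lower, and 6 of the 58 calls ended, those of Cck and Ifngr2 among them. Where the block over 36 libraries changes what is called in a gene list, its value is given beside the list, and a gene that was not called without it cannot be taken as unchanged.

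**Figure D1:**
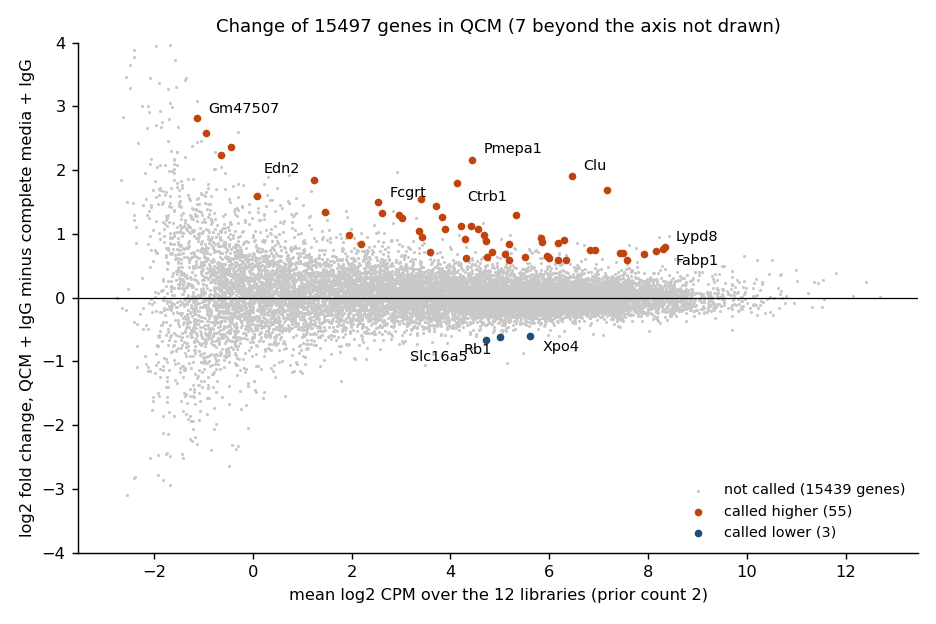
Each point is 1 of the genes tested, with its mean log2 CPM over the 12 libraries (prior count 2) on the x axis and its log2 fold change, QCM + IgG minus complete media + IgG, on the y axis. The 55 genes called higher spread from low to high abundance, and the 3 called lower lie between −0.61 and −0.66. 7 genes, none of them called, lie beyond ±4 and are not drawn.

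Among genes with a mean log2 CPM over 1 the largest called change was in a target of TGF-β. Pmepa1 (ENSMUSG00000038400, chr2:173224458-173276533, minus strand) encodes a membrane protein that is induced by TGF-β and dampens its Smad signal. Pmepa1 was measured at 6.66 to 15.2 CPM (median 10.7) in complete media and at 35.2 to 73.4 CPM (median 40.6) in QCM. All 6 QCM libraries lay above every complete media library, and Pmepa1 rose 4.45-fold (log2 fold change 2.15 ± 0.38 SE, adjusted p = 0.00182). Skil, which encodes the Smad corepressor SnoN, a feedback gene of the same pathway, was measured at 11.7 to 20.4 CPM (median 13.4) in complete media and at 21.9 to 29.4 CPM (median 28.2) in QCM. Its groups did not overlap, and it rose 1.89-fold (log2 fold change 0.92 ± 0.19 SE, adjusted p = 0.00880). Id1, a target of BMP and TGF-β signals that encodes an inhibitor of helix-loop-helix factors, had 8.02 to 14.1 CPM (median 8.60) in complete media and 13.1 to 21.8 CPM (median 14.5) in QCM. The groups overlapped, with the highest complete media value in replicate 3 and the highest QCM value also in replicate 3, and Id1 was 1.65-fold higher (log2 fold change 0.72 ± 0.16 SE, adjusted p = 0.0218). The call of Id1 ended when any of QCM replicates 3 and 5 or complete media replicates 1, 2, 4, 5 and 6 was left out (adjusted p between 0.0510 and 0.13), and also with offsets that depend on gene length (adjusted p = 0.0816). With voom and limma in place of edgeR, Skil missed the threshold at an adjusted p of 0.0774 after TMM scaling and 0.0915 after quantile normalization, and Id1 at 0.0654 and 0.11.

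These were the 3 of 16 tested TGF-β and BMP response genes that passed, all higher, and none was lower. The 16 genes had a median log2 fold change of 0.46, beside 0.02 over all genes, and 13 of them were positive. Among the members that did not pass were the inhibitory Smads, Smad7 at 1.07 (adjusted p = 0.16) and Smad6 at 1.20 (adjusted p = 0.17). Tgfb1, the ligand itself, was at 0.60 (adjusted p = 0.48). Id3 was at −0.39 (adjusted p = 0.53), opposite in sign to Id1. Smad7 was called as well with the replicate block (log2 fold change 1.09 ± 0.24 SE, adjusted p = 0.00605). The summed level of the 18 genes was 269 to 315 CPM (median 282) in complete media and 327 to 436 CPM (median 389.7) in QCM, and these ranges did not overlap. This sum includes the 3 called genes. Among the 34 lists, sums did not overlap either for Paneth, proliferation, unfolded protein, cholesterol, iron and heme, and interferon and IL-10 receptor genes.

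**Figure D2:**
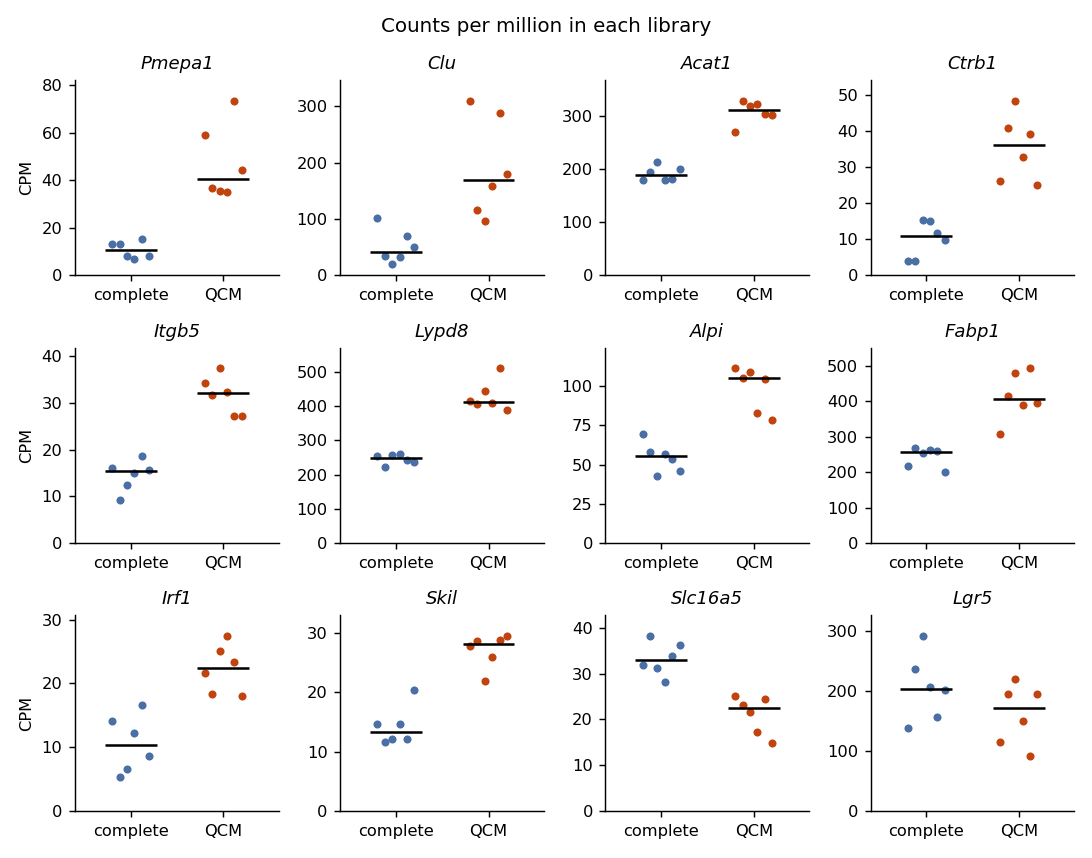
Each panel shows the CPM of 1 gene in the 6 complete media + IgG libraries and the 6 QCM + IgG libraries, with replicates 1 to 6 from left to right within a group and a line at the median. For Pmepa1, Acat1, Ctrb1, Itgb5, Lypd8, Alpi, Fabp1, Irf1 and Skil all QCM points lie above all complete media points, for Slc16a5 they lie below, and for Clu and Lgr5 the groups overlap.

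Of 16 enterocyte markers tested, 4 were called higher and none lower. Fabp1 (ENSMUSG00000054422, chr6:71199827-71205023, plus strand) encodes the fatty acid binding protein of liver and proximal intestine, Alpi (ENSMUSG00000079440, chr1:87098002-87101606, minus strand) the brush border alkaline phosphatase, Apoa4 an apolipoprotein of chylomicrons, and Rbp2 the retinol binding protein of the enterocyte. The 250 bases before the RefSeq transcription start of all 4 genes (build GRCm38.p6) are shown because they are the called members of the enterocyte list. RefSeq starts need not match the gene bounds given here, which are those of GENCODE on GRCm38. Capitals mark matches, on either strand, to the letters TTTATNG, a core of the site of the intestinal homeobox factors Cdx1 and Cdx2, and to GGAATG, the core of the TEAD site.
Fabp1, chr6:71199629-71199878, plus strand: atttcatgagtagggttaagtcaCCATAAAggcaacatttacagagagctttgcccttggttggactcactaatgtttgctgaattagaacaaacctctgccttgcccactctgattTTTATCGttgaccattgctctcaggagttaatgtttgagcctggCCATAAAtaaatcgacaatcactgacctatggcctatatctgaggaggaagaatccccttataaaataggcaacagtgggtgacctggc
Alpi, chr1:87101607-87101856, minus strand: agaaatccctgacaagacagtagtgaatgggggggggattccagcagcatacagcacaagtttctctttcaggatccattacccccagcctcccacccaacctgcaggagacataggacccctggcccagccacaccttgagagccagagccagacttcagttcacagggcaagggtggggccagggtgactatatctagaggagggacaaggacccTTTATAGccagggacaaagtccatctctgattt
Rbp2, chr9:98490287-98490536, plus strand: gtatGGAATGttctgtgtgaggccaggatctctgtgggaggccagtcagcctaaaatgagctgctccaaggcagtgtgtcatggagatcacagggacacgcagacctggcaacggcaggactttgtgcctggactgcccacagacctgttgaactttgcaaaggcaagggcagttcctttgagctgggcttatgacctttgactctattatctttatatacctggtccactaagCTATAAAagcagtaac
Apoa4, chr9:46240594-46240843, plus strand: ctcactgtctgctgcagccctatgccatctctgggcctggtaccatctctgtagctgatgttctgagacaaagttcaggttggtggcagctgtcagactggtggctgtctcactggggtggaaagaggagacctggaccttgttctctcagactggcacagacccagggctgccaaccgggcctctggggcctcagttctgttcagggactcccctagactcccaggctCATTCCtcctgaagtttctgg
The window of Fabp1 held 3 matches to TTTATNG, whose first bases lie 227, 133 and 89 bases before the start, that of Alpi held 1 at 33 bases and that of Rbp2 held 1 at 16 bases, beside 1 match to GGAATG at 246 bases. The window of Apoa4 held no match to TTTATNG and 1 to GGAATG, on the minus strand, at 21 bases. Both motifs were searched on both strands, and no match to one overlapped a match to the other in these windows.

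Among the 55 higher genes 38 had a promoter entry, and 6 of these (15.8%) held TTTATNG in the window, beside 816 of the 10482 tested genes with an entry (7.78%). The letters of that motif were chosen with the results known. In 3 of the 6 (Alpi, Rbp2 and 2210407C18Rik) the match lies within 40 bases of the start and reads TTTATAG, which resembles a TATA box, and the letters do not tell a TATA box from a Cdx site. GGAATG was held by 8 of the 38 (21.1%), among them Rbp2, Apoa4, Blvrb and Slc34a2, beside 1362 of all (13%). The AP-1 letters TGANTCA were held by 6 of the 38 (15.8%), among them Ang4 and Creb3l3, beside 599 of all (5.71%). With 38 genes these shares rest on 6 to 8 genes each, and a match is a run of letters and not a bound site.

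Fabp1 was measured at 201 to 269 CPM (median 256) in complete media and at 307 to 493 CPM (median 405) in QCM. Fabp1 rose 1.70-fold without overlap (log2 fold change 0.76 ± 0.15 SE, adjusted p = 0.00718). Alpi was at 42.7 to 69.4 CPM (median 55.3) in complete media and at 78.3 to 111 CPM (median 105) in QCM, again without overlap, and rose 1.81-fold (log2 fold change 0.86 ± 0.16 SE, adjusted p = 0.00443). Rbp2 (109 to 190.1 CPM, median 145, then 184 to 280.0 CPM, median 235 in QCM) rose 1.63-fold with slight overlap (log2 fold change 0.70 ± 0.14 SE, adjusted p = 0.00595). Apoa4 (181 to 303 CPM, median 207, then 292 to 482 CPM, median 361) was 1.67-fold higher (log2 fold change 0.74 ± 0.17 SE, adjusted p = 0.0226). Its call ended without QCM replicate 2 or 3 or complete media replicate 1, 4, 5 or 6 (adjusted p between 0.0525 and 0.11) and with the length offsets (adjusted p = 0.0562). An antisense transcript that overlaps Apoa4, Gm10680, was also called, and with a library kit that does not mark strand the reads of the pair cannot be told apart.

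Most of the enterocyte list did not pass the test. 9 of the 16 were positive and 7 negative, and the median log2 fold change was 0.08 (0.03 with the length offsets) beside 0.02 over all genes. Apoa1, the neighbour of Apoa4 in the apolipoprotein cluster, missed the threshold at 0.61 (adjusted p = 0.0591). Other brush border hydrolases and a sugar transporter did not pass, with Anpep (aminopeptidase N) at −0.82 (adjusted p = 0.13), Sis (sucrase-isomaltase) at −0.53 (adjusted p = 0.39), Slc5a1 (the glucose transporter SGLT1) at −0.21 (adjusted p = 0.74) and Lct (lactase) at 0.10 (adjusted p = 0.94). With the replicate block Apoa1 was also called higher (log2 fold change 0.61 ± 0.14 SE, adjusted p = 0.00764) and Anpep was called lower (−0.87 ± 0.16 SE, adjusted p = 8.68e-04). The summed level of the list was 4843 to 6908 CPM (median 5512) in complete media and 5467 to 7201 CPM (median 6459.5) in QCM, with overlap. As RNA was taken from whole organoids, more cells of a type and more RNA per cell cannot be told apart in any of these results.

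Genes of lipid metabolism were also called. Acat1, the mitochondrial acetoacetyl-CoA thiolase of fatty acid and ketone body metabolism, was at 179 to 213 CPM (median 188) in complete media and 269 to 329 CPM (median 311) in QCM, and it rose 1.61-fold without overlap (log2 fold change 0.68 ± 0.10 SE, adjusted p = 1.42e-04). Creb3l3, a membrane-bound transcription factor of liver and intestine that controls genes of lipid metabolism, among them Apoa4, was at 32.6 to 51.9 CPM (median 41.7) and at 52.5 to 99.5 CPM (median 81.1) without overlap, and rose 1.91-fold (log2 fold change 0.93 ± 0.18 SE, adjusted p = 0.00595). Creb3l3 was named after its values were seen.

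A list of 27 genes of fatty acid oxidation and ketogenesis, also chosen after the values were seen, had 3 higher, Acat1 and Creb3l3 among them, and none lower of 26 tested. Slc25a20, the carnitine carrier, passed the test below the fold cutoff at 0.34 (adjusted p = 0.0381). The median of the list was 0.09 beside 0.02 over all genes, and the enzymes of β-oxidation itself stayed near 0, with Acadm at 0.03, Hadha at −0.04 and Cpt2 at 0.09. Ppara, the nuclear receptor that drives fatty acid oxidation in liver, was at −0.08 (adjusted p = 0.91). Pdk4 and Angptl4, which are only some of its targets, were at −0.14 and 0.09 (adjusted p = 0.98 and 0.95). Pdk4 was poorly measured, at 0.12 ± 0.98 SE with the replicate block. Whether the activity of Ppara differed between the media was not tested.

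Genes of heme and iron handling were chosen as a list in the same way, after the values were seen. Blvrb, the biliverdin reductase B that also reduces flavins, was at 22.5 to 31.01 CPM (median 27.7) in complete media and at 42.1 to 55.3 CPM (median 48.1) in QCM, and rose 1.80-fold without overlap (log2 fold change 0.85 ± 0.12 SE, adjusted p = 9.81e-05). Slc46a1, the proton-coupled folate transporter of the proximal intestine, first described as a heme carrier, was at 15 to 26.6 CPM (median 19.5) and 26.9 to 46.4 CPM (median 36.3), and rose 1.86-fold (log2 fold change 0.90 ± 0.16 SE, adjusted p = 0.00286). Fth1, the heavy chain of ferritin, passed the test below the fold cutoff at 0.43 (adjusted p = 0.00150). These were 2 higher and none lower of 14 tested, with a median of 0.13. Hmox1, the heme oxygenase, was at 0.56 (adjusted p = 0.41), and Tfrc, the transferrin receptor, at −0.37 (adjusted p = 0.14). Hmox1 was called higher with the replicate block (log2 fold change 0.60 ± 0.14 SE, adjusted p = 0.0161).

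Lypd8, Cyba and Fcgrt were also called. Lypd8 encodes a GPI-anchored protein that the epithelium sheds onto flagellated bacteria. Lypd8 was measured at 222 to 261 CPM (median 249) in complete media and at 389 to 510.2 CPM (median 412) in QCM. Each medium kept within a narrow range and the groups did not overlap, and Lypd8 rose 1.74-fold (log2 fold change 0.80 ± 0.09 SE, adjusted p = 8.74e-07). Cyba, the p22phox subunit that several NADPH oxidases share, was at 42.9 to 68.8 CPM (median 60.5) in complete media and 102 to 116 CPM (median 108) in QCM and rose 1.87-fold without overlap (log2 fold change 0.90 ± 0.12 SE, adjusted p = 2.06e-05). Fcgrt, the neonatal Fc receptor, which carries IgG across epithelia, was at 2.59 to 4.32 CPM (median 3.45) and 7.98 to 13.99 CPM (median 8.64) and rose 2.83-fold without overlap (log2 fold change 1.501 ± 0.19 SE, adjusted p = 1.66e-05). It was 1 of 2 genes whose change exceeded 1.5-fold by the stricter test of edgeR against that fold (glmTreat). Both media held IgG, so the ligand of this receptor was present in both groups.

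Ifngr2, the signalling chain of the interferon-γ receptor, was at 144 to 166 CPM (median 155) in complete media and at 192 to 263 CPM (median 241) in QCM without overlap, a 1.51-fold rise (log2 fold change 0.59 ± 0.07 SE, adjusted p = 2.86e-06). Its fold lies at the cutoff and dropped below it, with an adjusted p of at most 4.52e-05, when any of 9 single libraries was left out, namely QCM replicates 2 to 5 or complete media replicates 1 and 3 to 6. It was also below the cutoff with the replicate block over the 12 libraries alone (0.57 on the log2 scale). Irf1, the transcription factor that interferon-γ induces, was at 5.36 to 16.7 CPM (median 10.4) and at 18 to 27.4 CPM (median 22.5) and rose 2.11-fold without overlap (log2 fold change 1.08 ± 0.19 SE, adjusted p = 0.00150). Il10rb, the shared chain of the receptors for IL-10, IL-22 and type III interferons, passed the test below the fold cutoff at 0.39 (adjusted p = 0.00595) and was named after its values were seen. Irf1 was the 1 gene called of 18 interferon response genes tested, with and without the replicate block, 10 were positive and 8 negative with a median of 0.09, and Cxcl10 was at 1.23 (adjusted p = 0.25) and Psmb8 at 0.41 (adjusted p = 0.63). The interval of the change lay within 1.5-fold for 2 of the 18, so for most of them a change of that size was not excluded. A list of 10 genes, chosen for interferon and IL-10 receptors after the values were seen, held 2 called of 9 tested. Its median was 0.04, and the called genes were the receptor gene Ifngr2 and again Irf1, which is not a receptor gene. Of 22 NF-κB and inflammatory genes tested none was called, although 20 were positive and their median was 0.30. The summed level of the list did not rise, at 1217 to 1694 CPM (median 1605) in complete media and 1239 to 1691 CPM (median 1553) in QCM. Reg3b and Cxcl1 stood at 0.58 and 0.61 (adjusted p = 0.42 and 0.71).

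**Figure D3:**
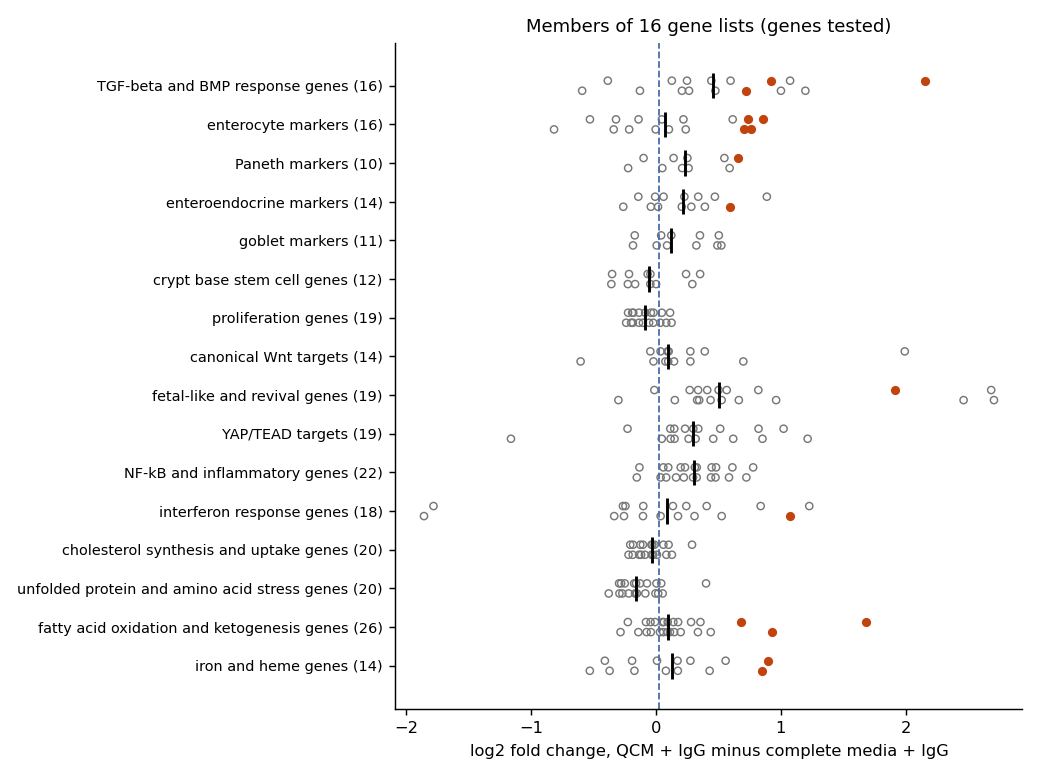
Each circle is 1 gene of a list, at its log2 fold change, QCM + IgG minus complete media + IgG. Filled circles are genes called, black bars the median of the list, the dashed line the median of all genes tested, and the number of genes tested stands in brackets. The called genes, 3 in the TGF-β and BMP list and 4 in the enterocyte list, lie above the median of their list, but some uncalled members lie higher, such as Smad6 above Skil and Id1 and Basp1 above Clu, and proliferation and cholesterol genes stay close to 0.

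Clu (ENSMUSG00000022037, chr14:65968483-65981547, plus strand) encodes clusterin, the secreted chaperone that marks revival stem cells of injured intestine. Clu was measured at 19.8 to 101 CPM (median 41.9) in complete media and at 96.1 to 309.8 CPM (median 169) in QCM. Clu rose 3.76-fold, but it varied widely within each medium and the groups overlapped slightly (log2 fold change 1.91 ± 0.42 SE, adjusted p = 0.0182). Its call ended when any of QCM replicates 1 and 5 or complete media replicates 2, 3, 4 and 6 was left out (adjusted p between 0.0545 and 0.0776) at a log2 fold change of 1.72 to 1.90, and with voom and limma after TMM scaling (adjusted p = 0.10). Clu was the 1 gene called of 19 fetal-like and revival genes tested. None was lower, 17 were positive, and the median was 0.50 beside 0.02 over all genes. Members with larger but unsteady differences were Basp1 at 2.71 (adjusted p = 0.20) and Ctse at 2.46 (adjusted p = 0.41), while Ly6a (Sca-1), the usual marker of fetal-like epithelium, was at 0.15 (adjusted p = 0.89) and Anxa1 at 0.44 (adjusted p = 0.70). The interval of the change lay within 1.5-fold for 1 of the 19.

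Taken by replicate number, the summed level of the fetal-like list was higher in QCM than in complete media at all 6 numbers. This held for 15 of the 34 lists, among them also the enterocyte, goblet, Paneth, YAP/TEAD and squamous and keratin lists. With the replicate block 6 of the 19 were called higher and none lower. These were Clu (log2 fold change 1.97 ± 0.10 SE, adjusted p = 3.66e-15), Anxa10 (0.72 ± 0.16 SE, adjusted p = 0.00806), Msln, which encodes mesothelin (0.69 ± 0.11 SE, adjusted p = 2.46e-04), the tight junction gene Cldn4 (0.85 ± 0.19 SE, adjusted p = 0.00702), Ctse, which encodes cathepsin E (2.49 ± 0.67 SE, adjusted p = 0.0348), and S100a6 (1.01 ± 0.13 SE, adjusted p = 5.12e-06). Ly6a was at 0.20 ± 0.15 SE, adjusted p = 0.56 in that fit and was not called.

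None of 19 YAP/TEAD targets was called, with 17 positive and a median of 0.30. With the replicate block Ajuba (log2 fold change 0.67 ± 0.13 SE, adjusted p = 0.00189) and F3, the tissue factor gene (0.89 ± 0.12 SE, adjusted p = 6.62e-06), were called higher. Ccn2, the usual readout of this pathway, was at 1.75 to 22.2 CPM (median 8.57) in complete media and 2.80 to 23.2 CPM (median 12.5) in QCM, a spread that left its log2 fold change of 0.46 with a 95% interval from −0.57 to 1.49 (adjusted p = 0.79). Its blocked value was 0.52 ± 0.25 SE, adjusted p = 0.31. Squamous and keratin genes, with 16 tested, had none called and a median of 0.56, and Sprr2a3, a small proline-rich gene of squamous and injured epithelium outside that list, was at 17.7 to 46.7 CPM (median 23.7) in complete media and 41.6 to 97.6 CPM (median 57.8) in QCM. Sprr2a3 was 2.46-fold higher (log2 fold change 1.30 ± 0.30 SE, adjusted p = 0.0323), and its call ended without any of QCM replicates 1, 2, 3 and 5 or complete media replicates 2 to 6 (adjusted p between 0.0516 and 0.13). As a member of a family of near-identical genes, it may share reads with its copies. With the replicate block Sprr2a3 was at 1.32 ± 0.12 SE, adjusted p = 7.03e-09, and 4 squamous and keratin genes were called higher, namely Krt20 (0.82 ± 0.10 SE, adjusted p = 4.49e-06), Krt14 (3.46 ± 0.83 SE, adjusted p = 0.0146), Emp1 (0.59 ± 0.11 SE, adjusted p = 0.00142) and Emp3 (0.85 ± 0.17 SE, adjusted p = 0.00285).

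The listed stem cell and proliferation genes showed no called change, with or without the replicate block. Stem cell genes outside the list were not examined as a group. Lgr5, the marker of crypt base stem cells, was at 138 to 292 CPM (median 204) in complete media and at 91.3 to 220.1 CPM (median 172) in QCM, with a log2 fold change of −0.35 ± 0.22 (SE, adjusted p = 0.55). The groups overlapped, and the 95% interval ran from −0.79 to 0.09. Olfm4, a further stem cell marker, was at 303 to 548 CPM (median 509.8) and 411 to 751 CPM (median 625), with a log2 fold change of 0.35 ± 0.26 (SE, adjusted p = 0.64), opposite in sign. None of 12 crypt base stem cell genes was called, 4 were positive and 8 negative, and their median was −0.06. Mki67, the proliferation marker, was at 210.0 to 392 CPM (median 321) in complete media and 250.4 to 313 CPM (median 273) in QCM, with a log2 fold change of −0.19 ± 0.11 (SE, adjusted p = 0.52). None of 19 proliferation genes was called, 14 were negative, the median was −0.09, and the interval of all 19 lay within 1.5-fold. Their summed level was 4166 to 4434 CPM (median 4282) in complete media and 3926 to 4158 CPM (median 4013) in QCM, a small difference without overlap. Canonical Wnt targets, 14 tested and none called, had a median of 0.10, with Axin2 at −0.05 (adjusted p = 0.96) and Rnf43 at 0.39 (adjusted p = 0.18). Among 13 Notch genes and 23 genes of noncanonical Wnt and planar polarity none was called, with medians of 0.15 and 0.01. Ptk7, the receptor that the study blocked in other arms, was at 9.15 to 14.1 CPM (median 11.3) and 5.32 to 12.4 CPM (median 10.1), with a log2 fold change of −0.28 ± 0.26 (SE, adjusted p = 0.73).

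In the secretory lineages single genes moved. Ang4, an antimicrobial angiogenin of Paneth cells, was at 43.9 to 56.3 CPM (median 49.1) in complete media and 66.8 to 87.6 CPM (median 76.5) in QCM without overlap and rose 1.57-fold (log2 fold change 0.65 ± 0.14 SE, adjusted p = 0.00985). It was the 1 gene called of 10 Paneth markers tested, whose median was 0.23 and whose sum of 3854 to 4496 CPM (median 4091) in complete media did not overlap with 4605 to 5491 CPM (median 4830.0) in QCM, and Lyz1, the Paneth lysozyme, was at 485 to 616 CPM (median 550.1) and 609 to 698 CPM (median 628), with a log2 fold change of 0.21 ± 0.12 (SE, adjusted p = 0.52). Ang4 fell short of the fold cutoff with offsets that depend on gene length (0.53 on the log2 scale, adjusted p = 0.0240), and it may share reads with its paralogs. With these offsets the median of the Paneth list was 0.10 and no member was called. Cck, the hormone cholecystokinin, was at 56.7 to 76.6 CPM (median 67.1) and 79.2 to 127 CPM (median 94.4) without overlap and rose 1.51-fold (log2 fold change 0.60 ± 0.13 SE, adjusted p = 0.0112). Its call ended without QCM replicate 2 or 3 or complete media replicate 1, 3 or 5 (log2 fold change between 0.50 and 0.57, adjusted p between 0.0211 and 0.0694) and fell below the fold cutoff with the length offsets (0.50 on the log2 scale) and with the replicate block over the 12 libraries alone (0.57).

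Cck was the 1 gene called of 14 enteroendocrine markers, with a median of 0.22, and Chga, the general marker of these cells, was at 58.1 to 109 CPM (median 83.4) in complete media and 81.3 to 111 CPM (median 98.8) in QCM, with a log2 fold change of 0.23 ± 0.14 (SE, adjusted p = 0.55). Pyy, the gene of peptide YY, was called higher with the replicate block (log2 fold change 0.90 ± 0.25 SE, adjusted p = 0.0409). Muc2, the goblet mucin, was at 18.9 to 60.97 CPM (median 35.9) and 18.4 to 43.3 CPM (median 31.8), with a log2 fold change of −0.18 ± 0.24 (SE, adjusted p = 0.83). None of 11 goblet markers and none of 8 tuft markers tested was called, with medians of 0.12 and −0.13. With the length offsets the enteroendocrine median was 0.13 and the goblet median 0.03.

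The remaining named genes are of mixed function and, apart from Itgb5, belong to none of the lists. Edn2, the vasoactive peptide endothelin 2, rose 3.59-fold from a low level (0.282 to 2.64 CPM, median 1.24, then 3.13 to 7.89 CPM, median 4.26, without overlap, log2 fold change 1.85 ± 0.35 SE, adjusted p = 0.00453). Ctrb1, a chymotrypsinogen known from the pancreas, was at 3.85 to 15.3 CPM (median 10.8) and 25.1 to 48.4 CPM (median 36.05) without overlap and rose 3.49-fold (log2 fold change 1.80 ± 0.30 SE, adjusted p = 9.93e-04). Gkn3, a member of the gastrokine family, rose 2.55-fold (0.417 to 2.73 CPM, median 1.85, then 3.51 to 5.19 CPM, median 4.54, without overlap, log2 fold change 1.35 ± 0.27 SE, adjusted p = 0.00595). Itgb5, the β subunit of a vitronectin receptor, was at 9.21 to 18.6 CPM (median 15.4) and 27.2 to 37.3 CPM (median 32.02) without overlap and rose 2.18-fold (log2 fold change 1.13 ± 0.18 SE, adjusted p = 6.96e-04), the 1 gene called of 19 integrin and laminin genes, whose median was 0.28. The laminin gene Lama3 was called as well with the replicate block (log2 fold change 2.11 ± 0.21 SE, adjusted p = 5.17e-08). Among metabolic and transport genes, Gde1, a glycerophosphodiester phosphodiesterase, rose 2.70-fold (5.34 to 9.75 CPM, median 7.94, then 15.5 to 24.3 CPM, median 22.8, without overlap, log2 fold change 1.43 ± 0.20 SE, adjusted p = 7.54e-05), and Slc34a2, a sodium-phosphate cotransporter of the small intestine, rose 2.18-fold (9.42 to 16.6 CPM, median 12.7, then 20.4 to 35.6 CPM, median 27.5, without overlap, log2 fold change 1.123 ± 0.16 SE, adjusted p = 7.54e-05).

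Cox7a1, a subunit isoform of cytochrome c oxidase best known from muscle, was 2.37-fold higher (4.44 to 7.71 CPM, median 4.93 in complete media and 8.68 to 16.1 CPM, median 13.1 in QCM, log2 fold change 1.24 ± 0.22 SE, adjusted p = 0.00150), while none of the 10 mitochondrially encoded genes tested was called. Sema3b, a secreted semaphorin, was 2.12-fold higher (11.8 to 22.4 CPM, median 16.6, then 23.4 to 46.9 CPM, median 35.98, log2 fold change 1.08 ± 0.17 SE, adjusted p = 2.82e-04). Tmem139, a membrane protein, was 2.52-fold higher (1.76 to 5.74 CPM, median 4.17, then 7.34 to 13.9 CPM, median 9.73, log2 fold change 1.33 ± 0.27 SE, adjusted p = 0.00880). For Cox7a1, Sema3b and Tmem139 no library of QCM fell into the range of complete media. Ccdc68, a centrosomal protein, was 2.45-fold higher (2.44 to 7.56 CPM, median 5.42, then 8.15 to 15.1 CPM, median 12.97, log2 fold change 1.29 ± 0.31 SE, adjusted p = 0.0391), but its call ended without any of QCM replicates 1, 2, 4, 5 and 6 or complete media replicates 2, 3, 4 and 6 (adjusted p between 0.0597 and 0.14). With voom and limma, Gkn3, Ccdc68, Sprr2a3 and Cck were not called after either scaling, and Ang4 and Ifngr2 were not called after quantile normalization. With DESeq2 the folds of Cck and Ifngr2 fell below the cutoff.

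Only 3 genes were called lower, all by less than 2-fold. Slc16a5, a member of the monocarboxylate transporter family, was at 28.3 to 38.2 CPM (median 32.9) in complete media and at 14.9 to 25.2 CPM (median 22.4) in QCM. Its groups did not overlap and its log2 fold change was −0.66 ± 0.15 (SE, adjusted p = 0.0212). Xpo4, a nuclear export receptor that also exports Smad3, was at 46.5 to 77.3 CPM (median 59.7) and 33.97 to 44.02 CPM (median 41) without overlap (log2 fold change −0.61 ± 0.13 SE, adjusted p = 0.00984). Rb1, the retinoblastoma protein that holds cells before S phase, was at 32.02 to 60.2 CPM (median 37.4) and 21.99 to 32.7 CPM (median 25.5) with overlap (log2 fold change −0.62 ± 0.14 SE, adjusted p = 0.0212). All 3 calls hung on single libraries. Xpo4 passed the test but fell below the fold cutoff without QCM replicate 2 or complete media replicate 3 or 4 (log2 fold change between −0.58 and −0.54) and with the length offsets (−0.53 on the log2 scale). With GC-dependent offsets Xpo4 and Rb1 both fell below it. Rb1 missed the threshold without QCM replicate 1 or 3 or complete media replicate 2 (adjusted p between 0.0627 and 0.0857), and Slc16a5 missed it without QCM replicate 4 or complete media replicate 6 (adjusted p = 0.0510 and 0.0545). Rb1, Slc16a5, Irf1, Ccdc68 and Gde1 each overlap a tested gene on the opposite strand, so their reads may include those of the partner, and the partner of Gde1, Gm45236, was itself called higher.

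Most listed genes of the unfolded protein and amino acid stress responses had small negative differences. Of 20 tested none was called at 1.5-fold, 15 were negative and the median was −0.16 beside 0.02 over all genes. Hspa5, the endoplasmic reticulum chaperone BiP, passed the test at −0.27 (adjusted p = 0.00880), and Asns, the asparagine synthetase that Atf4 induces, at −0.28 (adjusted p = 0.0455). Their summed level was 4934 to 5460.3 CPM (median 5144) in complete media and 4360.4 to 4790.2 CPM (median 4509) in QCM without overlap, and the interval of 18 of the 20 lay within 1.5-fold. Cholesterol synthesis and uptake genes, 20 tested, had none called, a median of −0.04 and every interval within 1.5-fold. Their sum was 6316 to 6631 CPM (median 6475) in complete media and 5809 to 6294 CPM (median 6097) in QCM, also without overlap. No gene was called among 24 immediate early and EGFR-ERK response genes (median 0.24), 23 glycolysis and hypoxia genes (0.15), 18 NRF2 and xenobiotic genes (−0.05), 10 metallothionein and zinc genes (0.02), 17 clock genes (0.0046), 17 actin and SRF genes (0.08) and 15 p53 and senescence genes (−0.0072). With the replicate block Fos of the immediate early genes (log2 fold change 0.68 ± 0.19 SE, adjusted p = 0.0392) and Hmox1 of the NRF2 list (0.60 ± 0.14 SE, adjusted p = 0.0161) were called higher, and Slc39a8, a zinc transporter gene (−0.60 ± 0.09 SE, adjusted p = 3.16e-05), and Usp2 of the clock genes (−0.84 ± 0.23 SE, adjusted p = 0.0434) were called lower.

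The differences followed gene length. When the 15480 genes with an annotated length were divided into 10 bins of exon length, the median log2 fold change fell from 0.15 in the bin of shortest genes (median 616.5 bases) to −0.07 in the bin of longest genes (median 11553 bases). The median exon length was 2102 bases for the 55 higher genes and 6015 bases for the 3 lower ones, beside 3740 for the genes tested. Taking genes over 5 CPM, the level of the 2 shortest bins minus that of the 2 longest, relative to the mean of complete media, was between −0.10 and 0.10 on the log2 scale in the complete media libraries and between 0.06 and 0.32 in the QCM libraries. Ribosomal protein genes, which are short, took 0.568% to 0.668% of the counts in complete media and 0.659% to 0.761% in QCM. With offsets that remove this trend, an alternative added after the data were seen, 41 genes were higher and 3 lower, and 43 of the 58 calls were kept. Pmepa1, Skil, Acat1, Blvrb, Lypd8, Cyba, Fcgrt, Irf1, Fabp1, Alpi and Rbp2 were among the calls kept. Medians of lists near 0 changed sign with these offsets, to −0.0094 for the interferon response genes, −0.05 for the metallothionein and zinc genes, −0.01 for the clock genes and 0.02 for the p53 and senescence genes. Others moved by over 1.5 times, to −0.02 for the stem cell genes, 0.06 for noncanonical Wnt and planar polarity, −0.08 for NRF2, 0.05 for fatty acid oxidation and ketogenesis and 0.06 for the interferon and IL-10 receptors. The share of the trend in the remaining calls was not tested.

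**Figure D4:**
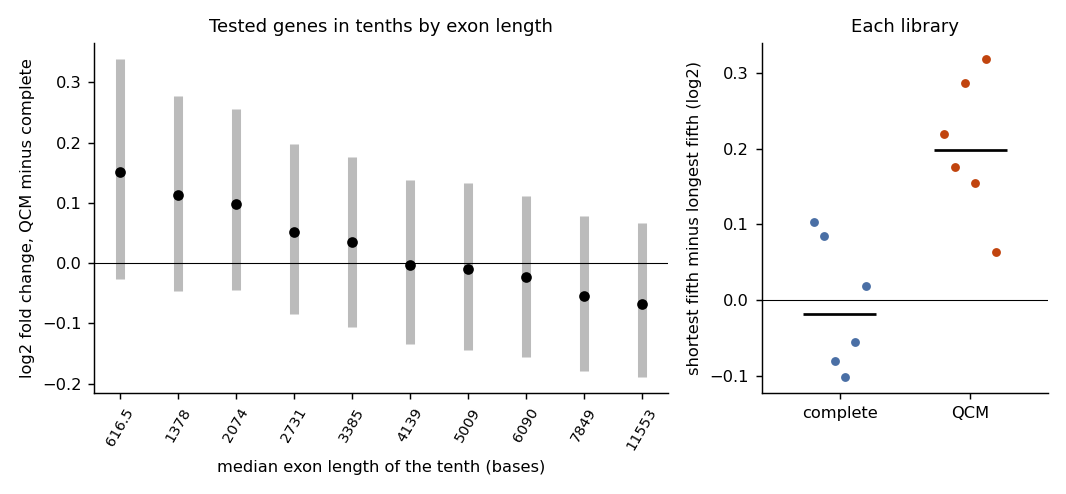
Left, the median (points) and interquartile range (bars) over genes of the log2 fold change, QCM + IgG minus complete media + IgG, in 10 bins of exon length, labelled with the median length in bases. Right, for each library, the log2 level of the 2 shortest bins minus that of the 2 longest, relative to the mean of complete media, with a line at the median. The left panel falls steadily from 0.15 to −0.07, and 5 of the 6 QCM libraries lie above all complete media libraries.

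Beside the other media of the study, the same genes can be read side by side, with the caution that each comparison uses the same 6 complete media libraries, so that a low value there raises all of them together. Over the 55 genes higher in QCM, the median log2 fold change against complete media was 0.93 in QCM, 1.42 in SCM + IgG and 1.08 in Wnt5a + IgG, where recombinant Wnt5a was added to complete media. Over all genes tested the medians were 0.023, 0.0068 and 0.0051. Clu was at 1.91 in QCM, 4.57 in SCM and 6.21 with Wnt5a. Pmepa1 was at 2.15, 3.55 and 3.03, and Skil at 0.92, 2.05 and 2.14. Lypd8 (0.80, 1.10 and 0.79) and Irf1 (1.08, 1.27 and 0.96) had values closer to each other.

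SCM was also compared with QCM directly, a comparison that shares the 6 QCM libraries with the one that called these genes. Of the 55 genes higher in QCM than in complete media, 13 were called higher in SCM than in QCM and none lower, beside 0.761% and 0.142% of all genes tested. The other 42 were not called, but 50 of the 55 had a positive difference, with a median of 0.44 on the log2 scale beside −0.0078 over all genes. Clu was higher in SCM than in QCM by 2.66 ± 0.42 on the log2 scale (SE, adjusted p = 6.16e-04), Pmepa1 by 1.39 ± 0.35 (adjusted p = 0.0332), Skil by 1.13 ± 0.18 (adjusted p = 7.08e-04) and Id1 by 0.96 ± 0.16 (adjusted p = 9.74e-04). For Irf1 the difference was 0.19 ± 0.18 (adjusted p = 0.64), for Fabp1 0.33 ± 0.15 (adjusted p = 0.26) and for Itgb5 0.34 ± 0.18 (adjusted p = 0.33), and these missed the threshold. Whether the difference of these 3 genes was smaller than that of the genes that passed was not tested. The genes called lower were at −0.74 (Slc16a5), −0.30 (Xpo4) and −0.27 (Rb1) in SCM against complete media and at −0.87, −0.34 and 0.07 with Wnt5a, so the value of Slc16a5 was negative in all 3 media and close between them.

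**Figure D5:**
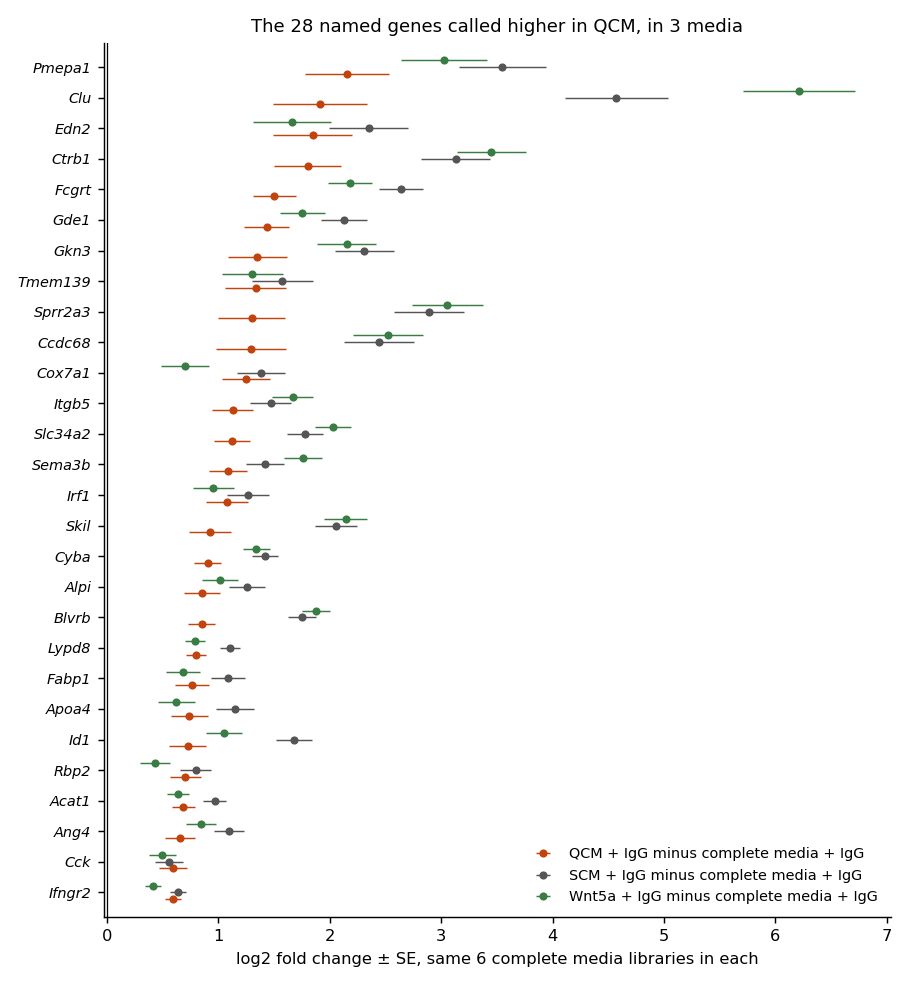
Log2 fold change (x axis, ± SE) of 28 named genes called higher in QCM, each against the same 6 complete media + IgG libraries, for QCM + IgG, SCM + IgG and Wnt5a + IgG. QCM and the other media lie close together for Irf1, Fabp1, Rbp2 and Cck, and QCM lies well below both for Pmepa1, Clu, Ctrb1, Skil and Blvrb.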

How the data were processed

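Whole-transcriptome libraries were prepared from 2 ng of RNA with a full-length kit that does not mark strand and read as single ends of 50 bp. Per the methods of the authors, reads were aligned with GSNAP to mm10 and those in coding sequences were counted. The deposited values are raw counts per gene and also cover noncoding genes, such as the antisense gene Gm10680, so they are not limited to coding sequences. The annotation and strand setting are not given in the sources used here. Symbols, coordinates and exon lengths were taken from GENCODE M21 (GRCm38), in which 147 of 52636 listed genes had no symbol.

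From these counts, genes with low counts were removed with filterByExpr, libraries were scaled by TMM, and 15497 genes were fitted with the quasi-likelihood test of edgeR 4.0.16 in R 4.3.3, with 6 condition means over all 36 libraries. P-values were adjusted by Benjamini-Hochberg over all genes, and calls needed both an adjusted p below 0.05 and a fold over 1.5. The authors tested with voom and limma on quantile-normalized values, which was run as an alternative (limma 3.58.1), beside DESeq2 1.42.0, other scalings and filters, a replicate block, the 12 libraries alone, glmTreat and leaving out each library. Offsets that depend on gene length or GC content were added after the data were seen. The script was tested on simulated data.

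Genes were named by rule, namely the 15 called genes with the largest fold among those with a mean log2 CPM over 1, the 10 with the smallest p in each direction, called members of the lists, and marker genes of the lineages. Predicted genes with no described product were given in counts only, and some genes that the rule selects are not reported here. The members and lists were chosen with earlier results of these data known, and the lists of fatty acid oxidation, iron and heme, and interferon and IL-10 receptor genes after these values were seen. The series describes 6 mice, numbered from 1 to 6, as the source, but the labels do not tie a replicate number to an animal. The fit without a replicate block was therefore the main one, and where the block changes a call its value is given too. P-values weigh the difference between the media against the spread between these samples, which may be partly technical. No pair of replicates agreed within sampling noise. Intervals are for the difference between the media and rest on the spread between libraries.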

Additional observations from a re-analysis of the deposited data

Results flagged for a closer look

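Within a medium, 4 of 84 sets of 6 libraries had a library far from the others by the gap test of Dixon, and chance alone gives about 1 in 20. Cox7a1 in complete media replicate 2 was at 7.71 CPM with the next library at 5.11 CPM (ratio of gap to range 0.746). Rb1 in the same library was at 60.2 CPM with the next at 40.3 CPM (0.637). Id1 was at 14.1 CPM in complete media replicate 3 with the next at 8.93 CPM (0.811), and at 21.8 CPM in QCM replicate 3 with the next at 15.4 CPM (0.683).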

How the results depend on the processing

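The counts of higher and lower genes, 55 and 3, became 33 and 6 with voom and limma after quantile normalization, 75 and 7 with DESeq2, 63 and 11 when only the 12 libraries were fitted, 41 and 1 with GC-dependent offsets, 84 and 18 without a fold cutoff, 24 and 0 at a fold over 2, and 2 and 0 with glmTreat at 1.5-fold. The other scalings, filters and the length offsets gave 40 to 52 higher and 3 or 4 lower genes. Leaving out 1 library gave 35 to 57 higher and 2 to 11 lower genes, and 30 of the 58 calls were kept in all 12 cases. A replicate block raised the counts to 166 and 12 over 36 libraries, with all 58 calls kept, and to 138 and 24 over the 12 libraries, with 52 kept and 6 lost, Cck and Ifngr2 among them. Libraries of the same number correlated at 0.0244 to 0.273 in their deviations, over 0.1 in 3 of 6 pairs, and 4 of 6 QCM libraries correlated best with their own number, and whether a number marks an animal cannot be told from the labels. The log2 fold change of Muc2 ran from −0.33 to 0.015 with 1 library left out, and was positive only without complete media replicate 4. Which property of the libraries sets these counts was not tested.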
